A study of Mus musculus with 112 samples.

Results

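Liver metastases were compared with lymph node metastases of the same mouse and the same tumour histology, in the 3 mice of the series that had a metastasis labelled liver. Members were chosen by label: the 3 arrays labelled liver metastasis, and every lymph node metastasis array that shared the mouse number and the histology of a liver array, which gave 6 arrays. The comparison therefore used 9 of 112 arrays. The study had induced skin tumours in mice by chemical carcinogenesis, resected primary tumours larger than 1 cm, and collected metastases from several organs when the animals were killed. All 3 mice were labelled male and were bred by crossing F1 animals (Spretus by FVB) back to the FVB strain. Each had received a single dose of the mutagen DMBA (25 mg by the label) at 8 weeks of age, followed by repeated applications of the tumour promoter TPA. Mouse 1383 was wild type (WT), and its 3 arrays used here were of squamous cell carcinoma (SCC) histology. Mouse 1815 was also WT, and its 3 arrays used here were of spindle histology, a poorly differentiated and mesenchymal form. Mouse 1664 carried the knockout labelled HrasKO, and its 3 arrays used here were of spindle histology. The arrays of mice 1383 and 1815 belonged to batch 1 and those of mouse 1664 to batch 2, so that the batch and the genotype of mouse 1664 cannot be told apart. Hras itself was not analysed here. A level below is a log2 RMA value, the logarithm of a normalized probe set intensity, and a difference is the liver array minus the mean of the 2 lymph node arrays of the same mouse.

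The liver is built mostly of hepatocytes, which secrete the majority of plasma proteins, among them albumin, clotting factors, complement and apolipoproteins, and which carry out gluconeogenesis, urea synthesis, bile acid synthesis and detoxification. These programmes are kept up by a small network of transcription factors that includes HNF4A, the FOXA proteins and C/EBP-alpha. A lymph node consists largely of B and T lymphocytes in a stroma of reticular cells and specialised vessels. A tumour growing in either organ is sampled together with some of the host tissue around it, and in bulk RNA fewer cells of a type and less RNA per cell cannot be told apart.

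The labels were also compared with marker genes. Albumin (Alb) and Hnf4a, defining genes of hepatocytes, were higher in each liver array than in both lymph node arrays of its mouse. Tumour genes did not follow the labels as evenly. Hmga2, an oncofetal chromatin protein gene raised in carcinomas of this model, had levels of 10.8, 10.8, 11.8, 11.7, 11.3 and 11.1 in the 6 lymph node arrays, in the order mouse 1383, 1664 and 1815. It stood at 8.75 in the liver array of mouse 1383, 11.4 in that of mouse 1664 and 5.57 in that of mouse 1815, where the dorsal skin of the same mouse stood at 6.44. Pitx1, a homeobox gene of limb and squamous tumours, likewise stood at 4.17 in the liver array of mouse 1815, against 10.5 and 9.75 in its lymph nodes and 4.64 in its skin. In mouse 1815 Xist, the RNA of the inactive X chromosome, was present in the carcinoma (8.08), both papillomas (9.19 and 8.60) and both lymph node metastases (9.53 and 8.99). It stood at 3.67 in the liver array, near the skin (3.36), the spleen metastasis (3.91) and the kidney metastasis (3.86) of that mouse. The Y chromosome genes Eif2s3y, Kdm5d and Uty stood at 8.64, 7.09 and 7.21 in its carcinoma and at 9.275, 8.22 and 8.12 in its liver array. The tumour and sex chromosome genes were chosen after their values were seen. Hmga2 and Pitx1 are also among the largest negative differences described below, so they are no separate check.

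**Figure D1:**
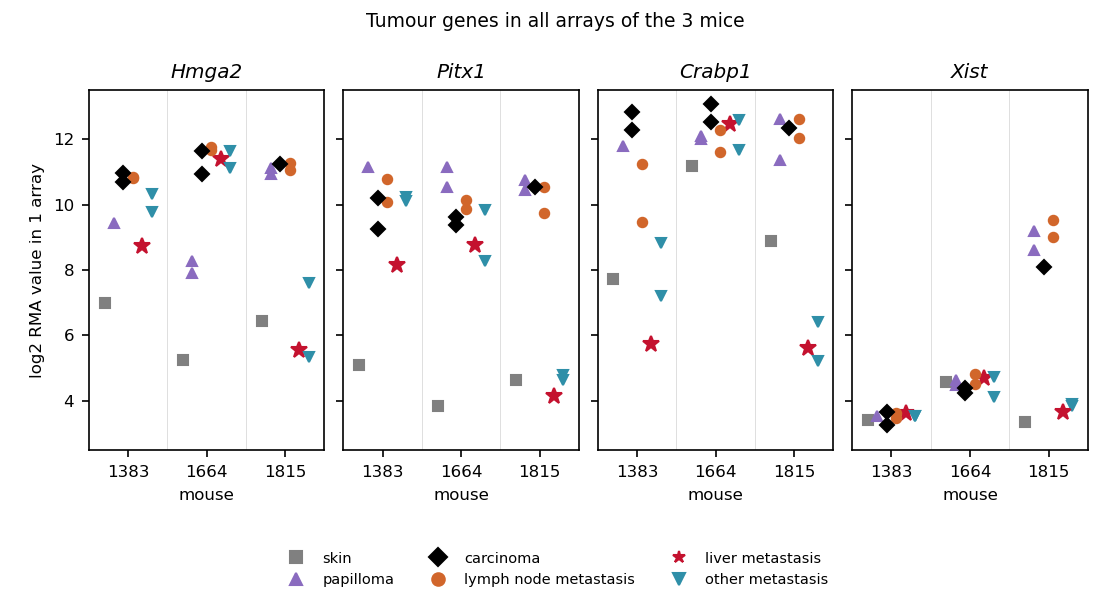
Levels of 4 genes in every array of the 3 mice (vertical axis, log2 RMA value; horizontal axis, mouse; each symbol is 1 array, with its tissue given by shape and colour). In mouse 1815 the liver metastasis lies below both lymph node metastases for all 4 genes (Hmga2 at 5.57, Xist at 3.67), whereas in mouse 1664 it lies near the lymph node metastases for Hmga2, Crabp1 and Xist.

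A wider panel set the liver arrays of mice 1383 and 1815 apart from that of mouse 1664. In each of 20 primary carcinomas of the other 12 mice, 208 genes were higher than in any of 15 dorsal skins. These were all skins of the series, those of mice 1383, 1664 and 1815 included. The liver array of mouse 1664 had 6 of these genes at or below the highest skin level (2.88%), that of mouse 1383 had 101 (48.6%) and that of mouse 1815 had 95 (45.7%). The 6 lymph node arrays had between 0 and 11. The kidney and spleen metastases of mouse 1815 had 81 (38.9%) and 65 (31.3%), whereas the lung and thymus metastases of mouse 1383 had 10 and 18. High counts also occurred in mouse 1664, where the papillomas had 87 (41.8%) and 57 (27.4%) and the lung metastasis 38 (18.3%), but the thymus metastasis 0. The libraries labelled liver metastasis of mice 1383 and 1815 thus both had many of these genes no higher than the highest skin. That of mouse 1815 also lacked the Xist RNA of its tumours, and main counts are also given without that mouse.

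Each liver array differed from its lymph node arrays more than the lymph node arrays differed from each other. The standard deviation of the difference across genes was 1.17 in mouse 1383, 0.744 in mouse 1664 and 0.9498 in mouse 1815, and that between the 2 lymph node arrays of a mouse was 0.569, 0.444 and 0.569. In mouse 1383, 3371 genes differed by more than 1 log2 unit between liver and lymph node and 1397 between the lymph nodes. The same counts were 1442 and 743 in mouse 1664, and 3074 and 1162 in mouse 1815. Over all 18772 genes the mean difference of the 3 mice had a median of -0.06.

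No single gene passed the test with 3 mice. In the paired limma fit on averages per mouse and site, 0 of 18772 genes (0%) had an adjusted p under 0.05, and the lowest adjusted p was 0.0606. At an unadjusted p under 0.05 there were 2180 genes, 969 higher and 1211 lower in liver. With 3 pairs the fit had 2 residual degrees of freedom, and its p-values measure the spread between these mice. Other fits to the same 9 arrays called between 0 and 300 genes, and 1 fit over all metastases of 5 sites called 651. An exact test on 3 pairs cannot go below a two-sided p of 0.25. Differences between liver and lymph node are therefore described by the levels of the arrays: 1443 genes (7.69%) had the liver array above both lymph node arrays in 3 of 3 mice, and 2888 (15.4%) had it below both. With a margin of at least 1 log2 unit in each mouse, 218 genes (1.16%) lay above and 22 (0.117%) below.

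A second limma fit tested the liver against other organs. It compared the liver metastases with the mean of lung (9 arrays), spleen (3) and thymus (3) metastases, in a model that also held the 24 lymph node metastases of the series, the mouse and the histology. In this fit 513 genes (2.73%) were higher at the liver and 19 (0.101%) were lower, at an adjusted p under 0.05. Without mouse 1815, whose spleen metastasis was among the controls, 526 genes (2.8%) were higher. All calls in both directions numbered 532, and 185 without mouse 1383. Both fits use the same 3 liver arrays, so their values are given side by side and are not independent.

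Hepatocyte genes were higher in the liver metastases, by large amounts. Of 140 measured genes in 9 hepatocyte lists, 117 had the liver array above both lymph node arrays in all 3 mice, against the 7.69% of all genes given above, and 0 lay below. By at least 1 log2 unit, 79 of the 140 did so, beside 1.16% of all genes. Against the other organs, 115 of the 140 were called higher in the limma fit, beside 2.73% of all genes, and 0 were called lower. Without mouse 1815, 118 of the 140 were called higher, and 137 lay above both lymph node arrays in mice 1383 and 1664, as did 14.5% of all genes. By list, the calls without mouse 1815 were 16 plasma carriers, 13 clotting, 8 complement, 14 apolipoprotein, 18 P450, 17 conjugation and transport, 15 amino acid and 8 transcription factor genes. For the counts of each hepatocyte list below, the shares of all genes are again 7.69% above both lymph nodes and 2.73% called.

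**Figure D2:**
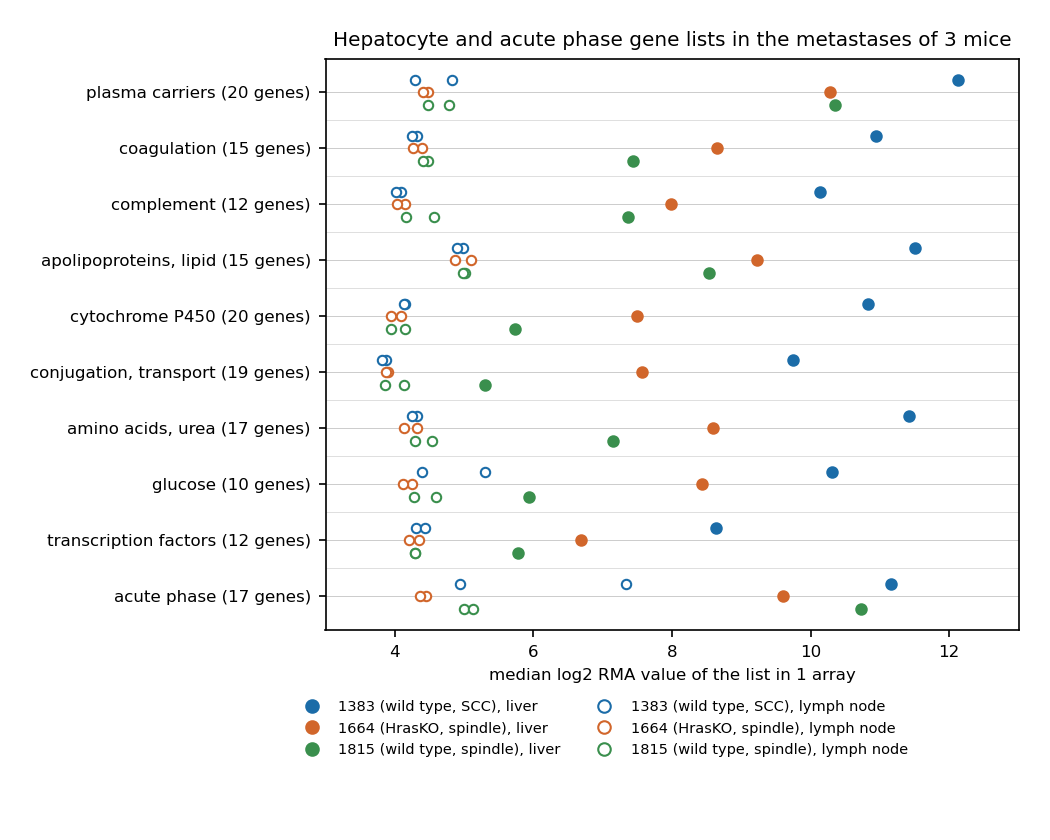
Median level of each hepatocyte list and of the acute phase list in each of the 9 arrays (horizontal axis, log2 RMA value; filled points, liver; open points, lymph node; colour, mouse; number of measured genes in brackets). The liver arrays lie to the right of the lymph node arrays in every list, with mouse 1383 highest, from 12.1 for plasma carriers down to 8.63 for transcription factors.

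Among the hepatocyte lists, plasma carriers had the largest share of genes above both lymph nodes in every mouse, 19 of 20. Their median differences were 7.34, 5.34 and 4.54 in mice 1383, 1664 and 1815. Alb, the gene of the main plasma protein, stood at 12.3, 11.3 and 11.965 in the liver arrays of mice 1383, 1664 and 1815, while the 6 lymph node arrays ran from 3.47 to 3.94 with a median of 3.77. The groups did not overlap, and each liver array was far above every lymph node array. The liver mean was 11.9 ± 0.51 (SD, n = 3 mice) and the lymph node mean 3.73 ± 0.11, a difference of 8.13 with an SE of 0.26, or 281-fold (limma, adjusted p = 0.0606). The lymph node levels lay near the array background (the median of all values was 6.8), so the fold is not an exact one. Against the other organs the difference in Alb was 7.97 with an SE of 0.32 (limma, adjusted p = 1.45e-09). RefSeq places Alb on chromosome 5, from 90460870 to 90476602 of GRCm38.p6.

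The remaining carriers and protease inhibitors behaved alike. Hpx, which encodes the haem scavenger hemopexin, stood at 13.3, 11.5 and 12.7 in liver and between 4.995 and 6.15 in lymph node. Ahsg (fetuin-A) stood at 12.7, 10.9 and 11.1 against 3.58 to 5.45. Pzp, an alpha-macroglobulin that traps proteases, stood at 12.1, 10.1 and 11.1 against 3.72 to 4.30. Of the 20 measured plasma carrier genes, 19 had the liver array above both lymph nodes in every mouse, and 18 were called higher than in the other organs. The exception in the first count was Rbp4, the retinol carrier, whose differences were 6.45, 5.23 and 1.18. Serpina1c, an alpha-1-antitrypsin gene, stood at 11.4, 9.30 and 10.1 against 2.98 to 3.78, but it belongs to a family of near-identical copies that a probe set may not separate.

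Clotting factors followed, with list median differences of 6.42, 3.91 and 2.61 in mice 1383, 1664 and 1815. Fgb and Fgg did not keep this order and were higher in mouse 1815 than in mouse 1664. The 3 fibrinogen chains are encoded by Fga, Fgb and Fgg. Fgb stood at 12.6, 10.7 and 12.2 in liver and between 4.42 and 4.60 in lymph node, a difference of 7.32 with an SE of 0.42 (limma, adjusted p = 0.117). Fgg stood at 12.5, 10.4 and 11.8, against 3.56 to 5.99 in lymph node, where the highest value came from a node of mouse 1815. Prothrombin (F2) stood at 11.2, 9.03 and 8.83 against 4.03 to 4.29, and plasminogen (Plg) at 12.1, 9.64 and 9.49 against 4.25 to 4.49. The liver arrays lay above all lymph node arrays for each of these. F7 and F10, 2 of the 15 measured members of the list, did not lie above both lymph nodes in every mouse, and F7 differed by 2.34, 1.93 and -0.96. In all, 13 of the 15 were called higher than in the other organs.

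Complement and apolipoprotein genes showed the same arrangement. C9, a pore-forming complement component, stood at 10.7, 8.28 and 7.88 against 3.62 to 3.85 in lymph node. C4bp, a complement inhibitor, stood at 11.1, 8.51 and 8.08 against 3.55 to 3.82. Of 12 measured complement genes, 10 lay above both lymph nodes in every mouse and 8 were called higher than in the other organs, while Masp1 differed by 2.74, 0.65 and -3.28. Apoa1, the main protein of high-density lipoprotein, stood at 12.5, 10.7 and 11.3 against 5.04 to 5.32, and Apob, the structural protein of very-low-density lipoprotein, at 11.6, 9.22 and 9.45 against 3.66 to 3.99. Among the 15 measured genes of this list, 13 lay above in every mouse and 14 were called against the other organs. Cpt1a, which admits fatty acids to mitochondria in many tissues, was an exception in both counts, though not the only one in the first. Its differences were 1.87, -0.21 and -0.02.

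Enzymes and transporters of hepatocytes differed more from mouse to mouse. Cyp3a11, a major drug-metabolising P450, stood at 9.90 in the liver array of mouse 1383, 6.44 in that of mouse 1664 and 3.47 in that of mouse 1815, against 2.56 to 2.86 in lymph node. Cyp7a1, the rate-limiting enzyme of bile acid synthesis, stood at 7.76, 5.78 and 3.35 against 2.86 to 3.21. Slc10a1, the bile acid importer NTCP, stood at 11.6, 8.59 and 5.31 against 4.14 to 4.48. The differences in mouse 1815 were 0.65, 0.23 and 1.07 for Cyp3a11, Cyp7a1 and Slc10a1, while in mouse 1383 they were 7.19, 4.76 and 7.33. Cyp3a11, Cyp7a1 and Slc10a1 were chosen as examples after their values had been seen.

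Of 20 measured P450 genes, 17 were above both lymph nodes in every mouse, 8 of them by at least 1 log2 unit, and 18 were called higher than in the other organs. Cyp2e1, which oxidises ethanol, was an exception among the lymph nodes: it stood at 11.9, 11.3 and 8.84 in liver, but 1 lymph node of mouse 1383 stood at 10.1 while the other 5 ran from 4.02 to 5.73. Cyp8b1, which directs bile acids toward cholic acid, differed by 5.49, 2.98 and -0.16. Among 19 genes of conjugation and transport, 17 were above in every mouse and 15 were called. The major urinary protein genes Mup3 and Mup20 were counted with them, although their products are secreted. Mup3 stood at 9.76, 8.35 and 9.58 against 3.54 to 3.795, and these genes too belong to a family of near-identical copies.

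Amino acid and glucose metabolism were split. Cps1, the entry enzyme of the urea cycle, stood at 12.4, 8.71 and 6.32 against 3.93 to 4.13 in lymph node. Tat, tyrosine aminotransferase, stood at 12.7, 9.41 and 10.1 against 3.68 to 3.97, and Mat1a, which makes S-adenosylmethionine, at 12.3, 9.60 and 11.4 against 3.98 to 4.67. Arg1, the last enzyme of the urea cycle and also a macrophage enzyme, differed by -0.29, 1.47 and -0.59. Of 17 measured genes of this list 13 were above in every mouse and 15 were called against the other organs.

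G6pc, the glucose-6-phosphatase that releases glucose into blood, stood at 11.2, 8.07 and 4.18 against 3.29 to 3.55. Fbp1, a gluconeogenic phosphatase, instead stood at 11.9, 10.3 and 10.8 against 3.60 to 5.14, a difference of 6.68 with an SE of 0.24 (limma, adjusted p = 0.0606). Its level was also high in some skins, up to 11.5. Of 10 measured glucose genes, 5 were above in every mouse and 6 were called against the other organs, or 9 of 10 without mouse 1815.

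The transcription factors that maintain hepatocytes were graded in the same way. Hnf4a stood at 11.8, 9.26 and 8.23 in liver against 5.24 to 5.54 in lymph node, a difference of 4.40 with an SE of 0.73 (limma, adjusted p = 0.345). Against the other organs the difference in Hnf4a was 4.48 with an SE of 0.43. Foxa3 stood at 9.54, 7.24 and 6.54 against 3.66 to 3.96, and Nr1h4, the bile acid receptor FXR, at 7.45, 6.48 and 5.30 against 3.51 to 4.37. Of 12 measured factors, 10 were above in every mouse and 8 were called against the other organs. Cebpa, which skin and fat also express, differed by 0.27, 0.27 and -0.19, and Foxa1 by 1.28, 2.17 and -0.21.

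The starts of 3 of these genes are shown because they are among the genes with the largest differences, with Alb, Fgb and Hpx high in all 3 liver arrays. For Alb, Fgb and Hpx the 250 bases before the RefSeq transcription start are printed from 5′ to 3′ on the gene's strand (GRCm38.p6; Alb chr5:90460620-90460869, plus; Fgb chr3:83049864-83050113, minus; Hpx chr7:105600117-105600366, minus). Capitals mark matches to the cores TGTTTAC (FOXA), TTGCNNAA (C/EBP) and CAAAGTCCA (HNF4), each searched on both strands. The genes were chosen after their values and matches were seen.
Alb: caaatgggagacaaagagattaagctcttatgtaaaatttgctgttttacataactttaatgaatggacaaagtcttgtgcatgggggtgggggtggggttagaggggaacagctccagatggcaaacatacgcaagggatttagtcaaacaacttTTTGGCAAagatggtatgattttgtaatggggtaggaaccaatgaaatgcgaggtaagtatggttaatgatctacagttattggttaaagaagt
Fgb: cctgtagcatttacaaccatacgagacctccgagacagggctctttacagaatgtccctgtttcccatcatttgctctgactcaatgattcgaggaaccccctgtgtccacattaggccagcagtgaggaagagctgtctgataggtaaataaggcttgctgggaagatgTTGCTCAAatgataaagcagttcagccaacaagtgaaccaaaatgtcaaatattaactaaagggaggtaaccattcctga
Hpx: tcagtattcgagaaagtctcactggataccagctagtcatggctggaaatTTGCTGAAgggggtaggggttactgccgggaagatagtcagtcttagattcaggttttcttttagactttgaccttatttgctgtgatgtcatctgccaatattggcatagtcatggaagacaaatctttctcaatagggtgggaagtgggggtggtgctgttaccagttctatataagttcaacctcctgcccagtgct

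Each of these windows held 1 match. The C/EBP core began 94 bases before the start of Alb, 80 before that of Fgb and 200 before that of Hpx. Of the 140 hepatocyte genes, 116 had a promoter in the RefSeq table. The C/EBP core was found in 23.3% of them and in 10.8% of all 27025 promoters. In the pancreas genes described below its share was 21.4%, or 3 of 14. The FOXA core was found in 6.03% against 3.54% and the HNF4 core in 2.59% against 0.451%. These shares are descriptions of the letters and were not tested.

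Secreted proteins and metabolic enzymes differed by mouse. The 62 genes of secreted proteins (carriers, clotting, complement and apolipoproteins) had median differences of 6.28 in mouse 1383, 4.36 in mouse 1664 and 3.07 in mouse 1815. The 66 genes of metabolism and transport had medians of 5.46, 3.55 and 0.99. In mouse 1815, 49 of the 62 secreted genes but 28 of the 66 metabolic genes lay at least 1 log2 unit above both lymph nodes, and in mouse 1383 the counts were 61 and 64. Of all 140 hepatocyte genes, 129 had their largest difference in mouse 1383 and 115 their smallest in mouse 1815. The difference between the gene groups was not tested.

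**Figure D3:**
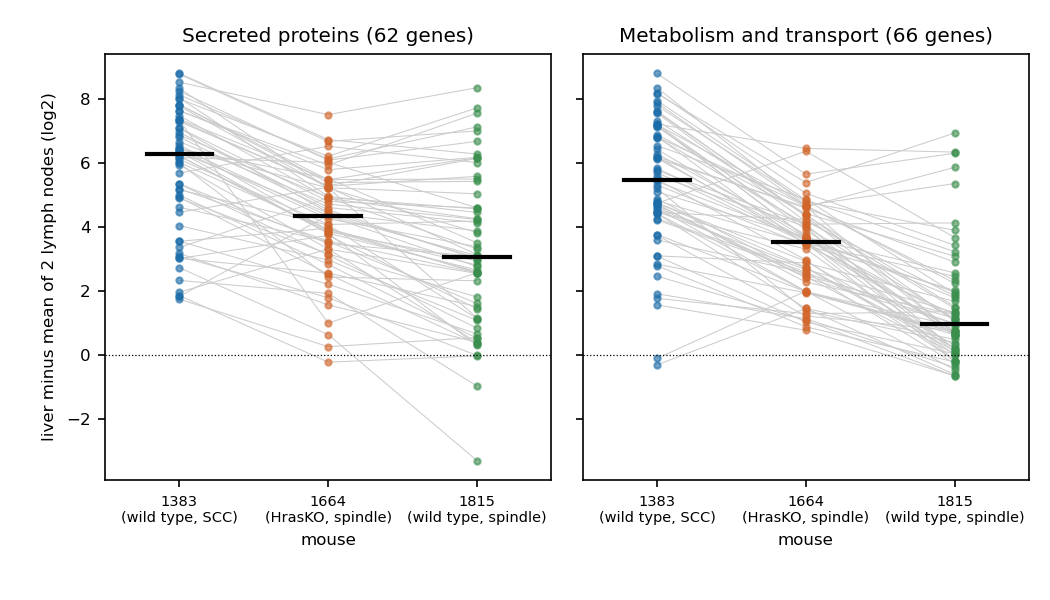
Liver minus lymph node difference of every secreted protein gene (left, 62 genes) and every gene of metabolism and transport (right, 66 genes) in the 3 mice (vertical axis, log2 difference; each point is 1 gene, grey lines join a gene across mice, black bars are medians). The medians go from 6.28 to 3.07 on the left and from 5.46 to 0.99 on the right between mice 1383 and 1815.

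Acute phase genes, which hepatocytes switch on in inflammation, were high in the liver arrays of all 3 mice, with median levels of 11.2, 9.60 and 10.7. They were not confined to these arrays, as the skin of mouse 1815 had a median level of 9.57. Saa2, a serum amyloid A gene, stood at 11.7, 10.6 and 11.1 in liver and between 3.25 and 7.34 in lymph node, a difference of 6.90 with an SE of 0.23 (limma, adjusted p = 0.0606). Orm1, an alpha-1-acid glycoprotein gene, stood at 12.003, 12.034 and 11.2 against 4.20 to 6.31. Hamp, the gene of the iron hormone hepcidin, stood at 10.8, 8.13 and 8.69 against 2.93 to 3.43. Of 17 measured genes, 13 were above both lymph nodes in every mouse, beside 7.69% of all genes. Against the other organs 8 were called higher, beside 2.73%. Saa3, which macrophages and epithelia also make, differed by -1.79, 0.18 and 1.88.

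Genes of both zones of the liver lobule were examined. Of 8 measured periportal genes, which mark the zone near incoming blood, 5 were above in every mouse, and of 12 pericentral genes 5 were, beside 7.69% of all genes. The pericentral median differences were 2.36, 1.25 and 0.52, and 48 of the other 109 arrays had a higher median level than the lowest liver array. Pck1, a periportal enzyme of gluconeogenesis, stood at 12.5, 10.2 and 8.47 against 5.19 to 7.04. Lect2, a secreted pericentral protein, stood at 10.2, 8.14 and 5.42 against 3.40 to 4.04. Glul (glutamine synthetase), the classical pericentral gene, is also active in tumours and stood at 11.9, 11.1 and 11.6 against 10.4 to 11.3, so that its groups overlapped.

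Markers of the other liver cells differed less than hepatocyte genes, with list medians largest in mouse 1383. Clec4f, a marker of Kupffer cells (the macrophages of the liver), stood at 7.87, 7.16 and 5.47 against 4.59 to 5.11 in lymph node, and was called higher than in the other organs (limma, difference 2.07, SE 0.33, adjusted p = 0.00228). Stab2, a scavenger receptor of sinusoidal endothelium, stood at 8.57, 8.52 and 7.16, and in lymph node ran from 4.93 to 7.13, the highest being a node of mouse 1815. Clec4g, another sinusoidal lectin, stood at 10.2, 7.08 and 6.72 against 4.27 to 5.91. Lrat, which stores retinol in stellate cells, stood at 8.15, 7.08 and 8.46 against 4.96 to 6.397. Over the lists, 4 of 10 Kupffer cell, 4 of 10 sinusoidal endothelium and 6 of 12 stellate cell genes were above both lymph nodes in every mouse, beside 7.69% of all genes. Against the other organs, 1 of 10, 1 of 10 and 4 of 12 genes of these lists were called, beside 2.73%, and the called genes are not all among those above both lymph nodes. Some members were lower. At least 1 log2 unit below both lymph nodes lay 1, 2 and 0 Kupffer cell genes in mice 1383, 1664 and 1815. For sinusoidal endothelium the counts were 1, 2 and 1, and for stellate cells 1, 0 and 1. Median differences were 1.35, 0.495 and 0.727 for Kupffer cells, 2.55, 1.135 and 0.496 for sinusoidal endothelium, and 2.27, 1.48 and 0.538 for stellate cells. Higher list levels than the lowest liver array occurred in 9, 14 and 1 of the other 109 arrays. Bile duct genes were mixed: Krt19 stood at 8.96, 5.19 and 5.65, each above its own lymph nodes, and Sox9 differed by -1.003, 0.08 and -2.77.

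Pancreas genes appeared in 2 of the 3 liver arrays. Cpb1, a pancreatic carboxypeptidase, stood at 12.6 in the liver array of mouse 1383 and 12.4 in that of mouse 1815, but at 3.81 in that of mouse 1664, and at 3.65 to 4.35 in the 6 lymph nodes. Cel, the bile-salt-activated lipase, stood at 12.8, 4.44 and 12.6 against 3.73 to 4.31, and Cela3b, a pancreatic elastase, at 13.2, 4.23 and 12.964 against 3.89 to 4.52. The 2 arrays stood together and mouse 1664 lay with the lymph nodes. The 7 measured pancreas markers had median differences of 8.36 in mouse 1383, 0.23 in mouse 1664 and 8.39 in mouse 1815, and in the first and last of these mice all 7 lay at least 1 log2 unit above both lymph nodes.

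The list's median level was 12.6 in both arrays, and in the other 109 arrays of the series, which include the spleen and thymus metastases, it reached 5.41 at most, in the spleen metastasis of mouse 1815. All 7 were called higher than in the other organs in the limma fit, beside 2.73% of all genes, and 0 of 7 when mouse 1815 was left out.

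Genes of the endocrine pancreas were high in the same arrays. Of 6 measured islet genes, 6 lay at least 1 log2 unit above both lymph nodes in mouse 1383, 5 in mouse 1815 and 0 in mouse 1664. Ins2, an insulin gene, stood at 9.93, 5.003 and 9.29 in liver against 4.54 to 4.996 in lymph node. Iapp, co-secreted with insulin, stood at 11.4, 3.79 and 10.2 against 3.33 to 3.71, glucagon (Gcg) at 8.76, 4.10 and 7.92 against 3.66 to 4.15, and somatostatin (Sst) at 9.35, 5.24 and 7.66 against 5.23 to 5.51. Genes of the Reg3 family, antimicrobial lectins of gut and inflamed pancreas, were highest in mouse 1815: Reg3b stood at 8.26, 4.25 and 11.7 against 3.68 to 4.25, and Reg3a at 4.17, 3.56 and 10.993 against 3.16 to 3.41. The islet and Reg3 genes were chosen after values of the pancreas list had been seen.

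Whether pancreatic RNA contributed to other differences in these 2 arrays was not tested. In mouse 1664, 0 of the 7 pancreas markers lay at least 1 log2 unit above both nodes, and the hepatocyte genes had a median difference of 3.69. Amy1, an amylase gene also active in liver, stood at 11.3, 7.67 and 8.41 against 3.20 to 3.94.

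**Figure D4:**
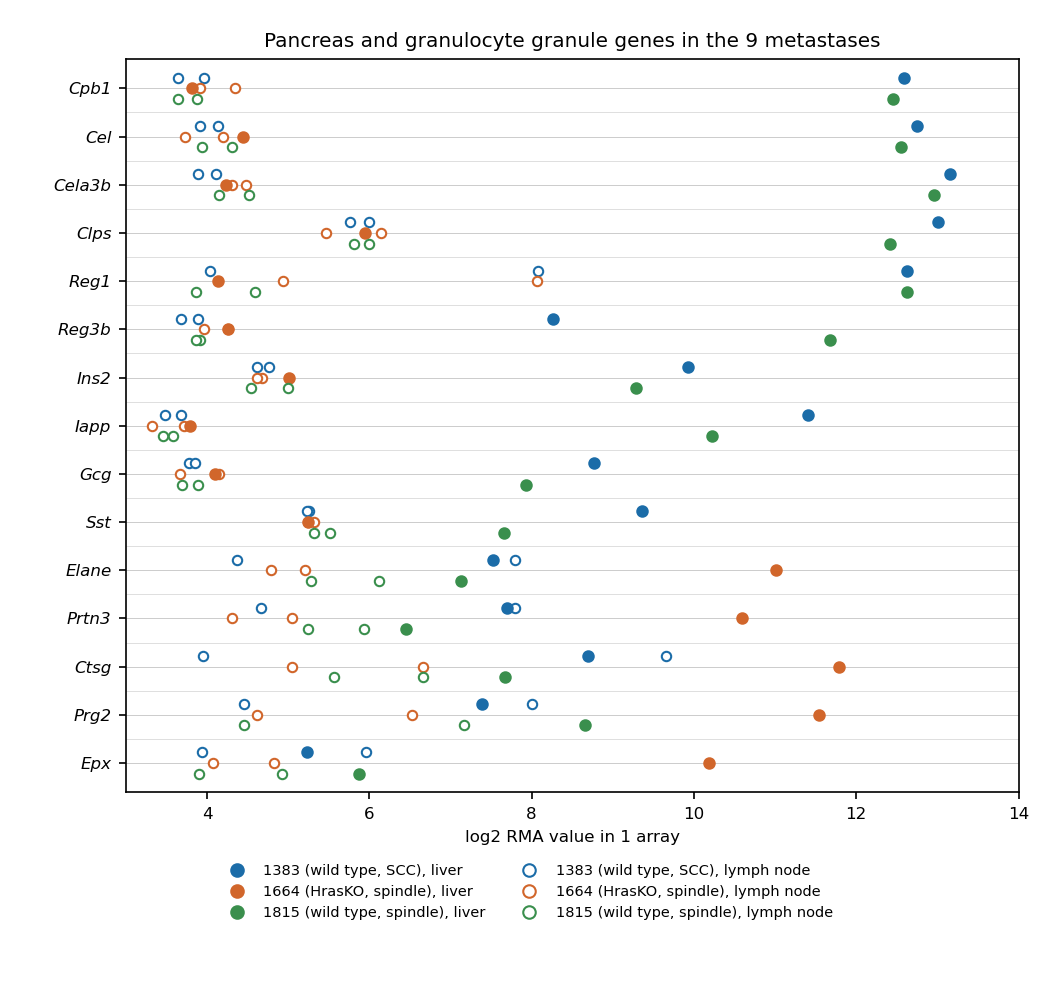
Levels of pancreas genes (Cpb1 to Sst) and of granulocyte granule genes (Elane to Epx) in the 9 arrays (horizontal axis, log2 RMA value; filled points, liver; open points, lymph node; colour, mouse). The exocrine genes lie above 12 in the liver arrays of mice 1383 and 1815, apart from Reg3b, and the granule genes lie highest in that of mouse 1664, with Elane at 11.017.

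Lymphocyte genes had no common direction in the 3 mice. The 14 measured B cell genes had median differences of -0.27, -0.19 and 2.43 in mice 1383, 1664 and 1815, and the 12 T cell genes -0.43, -0.21 and 2.28. Of both lists 0 genes lay above or below both lymph nodes in every mouse. Ms4a1, which encodes the B cell antigen CD20, stood at 4.61, 3.92 and 10.8 in liver and at 5.901, 3.87, 4.20, 6.41, 5.15 and 9.88 in lymph node. Cd3e, a chain of the T cell receptor complex, stood at 6.93, 5.19 and 10.981 in liver and between 5.14 and 9.65 in lymph node. Glycam1, a ligand made by the high endothelial venules through which lymphocytes enter lymph nodes, stood at 4.49, 4.49 and 10.7 in liver, and at 4.53 and 7.39 in the nodes of mouse 1815.

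The lymphoid genes of the liver array of mouse 1815 were thus above those of its own lymph node metastases. There, 10 of 12 T cell genes but 5 of 14 B cell genes lay at least 1 log2 unit above both. The 6 lymph node arrays themselves ranged widely, with a median B cell level from 4.66 to 8.95. Without mouse 1815 the median difference was -0.25 for B cell and -0.31 for T cell genes.

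Granulocyte genes were high in the liver array of mouse 1664. The 11 measured neutrophil genes had median differences of -0.91 in mouse 1383, 3.90 in mouse 1664 and 1.59 in mouse 1815. Elane, neutrophil elastase, which is transcribed in immature cells of the marrow, stood at 7.52, 11.017 and 7.12 in liver and between 4.36 and 7.79 in lymph node. Ctsg (cathepsin G) stood at 8.70, 11.8 and 7.67 against 3.94 to 9.65. Prg2 and Epx, granule proteins of eosinophils, stood at 7.38, 11.5 and 8.66, and at 5.23, 10.2 and 5.87. In mouse 1664 all 7 granule genes examined lay at least 1 log2 unit above both lymph nodes. These genes were chosen after their values were seen, and higher levels of them occurred elsewhere in the series, with Elane at 11.5 in a spleen metastasis.

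The 10 largest negative differences among genes outside both lymph nodes in every mouse included Hmga2 and the following genes, none of which was called. Pitx1 stood at 8.14, 8.77 and 4.17 in liver against 9.75 to 10.8 in lymph node, without overlap (limma, difference -3.16, SE 1.04, adjusted p = 0.419). Crabp2, a retinoic acid carrier of epidermis, stood at 8.55, 9.80 and 5.64 against 10.3 to 11.4. Tfap2a, a transcription factor of ectoderm, stood at 8.28, 9.34 and 4.29 against 9.34 to 10.6, and Lgals7, a galectin of stratified epithelium, at 10.3, 9.90 and 5.04 against 10.4 to 12.2. Cd109, a membrane protein of keratinocytes that binds TGF-beta, stood at 8.34, 9.95 and 5.13 against 9.63 to 11.2. In each case the difference was largest in mouse 1815 and smallest in mouse 1664. Without mouse 1815 the mean differences shrank to -1.76 for Pitx1, -1.74 for Crabp2, -1.61 for Tfap2a, -1.42 for Lgals7 and -1.47 for Cd109.

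Ndst3, a heparan sulphate modifying enzyme, differed by -2.89, -0.85 and -3.66, in the same order of mice. The remaining genes of these 10 did not keep that order. Slitrk6, a neuronal membrane protein, stood at 5.78, 5.21 and 3.82 against 5.78 to 8.70, with differences of -2.30, -2.73 and -2.61 (limma, mean -2.55, SE 0.16, adjusted p = 0.117). Arntl2, a circadian transcription factor, differed by -2.05, -2.35 and -3.39, and Fibin by -1.87, -3.44 and -2.81. None of these was called, and none of the 22 genes below by at least 1 log2 unit in each mouse passed the paired limma test.

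Squamous and mesenchymal programmes were examined in all 3 mice, whatever the histology. Epithelial adhesion genes had a median level of 9.86 in the SCC liver array of mouse 1383. In the spindle liver arrays of mice 1664 and 1815 it was 5.55 and 6.97. The 22 measured epithelial adhesion genes had median differences of -1.10 in the SCC mouse 1383, -0.48 in mouse 1664 and 0.11 in mouse 1815. The list was split in mouse 1815, where differences ran from -3.58 to 3.13. By at least 1 log2 unit, 0, 3 and 7 genes lay above both lymph nodes in mice 1383, 1664 and 1815. Below both by that margin were 11, 2 and 3. Krt5 and Krt14, the keratins of basal keratinocytes, stood at 11.5 and 11.2 in the SCC liver metastasis, against 12.3 and 12.4 for Krt5 and 12.3 for Krt14 in both of its lymph nodes. Of the 22 genes, 8 lay below both lymph nodes in every mouse, beside 15.4% of all genes, and 2 lay above, beside 7.69%. Esrp2, an epithelial splicing factor that hepatocytes also express, stood at 9.96, 7.02 and 7.56, each above its own lymph nodes.

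The 15 mesenchymal genes had medians of -0.69, -0.11 and -1.44. Vim, the intermediate filament of mesenchymal cells, stood at 11.9, 12.7 and 11.8 against 11.9 to 12.9 in lymph node. Cdh2, the cadherin of mesenchymal cells and also of hepatocytes, went the other way and stood at 9.32, 9.19 and 6.98 against 5.39 to 6.08. It was the member of this list called higher than in the other organs (limma, difference 2.76, SE 0.56, adjusted p = 0.0118).

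Most genes induced by Ras and MAP kinase signalling lay below the lymph nodes, by little in mouse 1664. Of 15 measured targets, 11 were below both lymph node arrays in 3 of 3 mice, beside 15.4% of all genes, and 0 were called against the other organs. By at least 1 log2 unit, 12, 0 and 8 of the 15 were below in mice 1383, 1664 and 1815, and 0 in every mouse. The medians were -1.59 in mouse 1383, -0.32 in mouse 1664 and -1.67 in mouse 1815, and the median without mouse 1815 was -0.97. Between the lymph node arrays of mouse 1664 the median difference of these genes was 0.34. Dusp6, the feedback phosphatase of ERK, stood at 10.7, 11.2 and 9.43 against 10.7 to 12.028, and differed by -1.27, -0.31 and -1.67. Ereg, the EGF receptor ligand epiregulin, stood at 6.39, 9.10 and 4.91 against 8.04 to 10.1, and Etv4, an Ets factor induced by ERK, at 7.68, 8.79 and 4.89 against 8.09 to 9.38. All 3 genes were lower in each liver array than in both nodes of its mouse, and least so in mouse 1664. The order of the mice is that of the 208 tumour genes for mouse 1664 against both WT mice, and the part of tumour content in these values was not tested.

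Matrix and protease genes were mixed. Postn, the matrix protein periostin, stood at 9.70, 9.84 and 9.22 in liver and between 10.8 and 11.8 in lymph node, with differences of -1.65, -1.45 and -2.08 (limma, mean -1.73, SE 0.19, adjusted p = 0.26). Mmp3 (stromelysin) stood at 5.04, 10.8 and 5.04 against 8.53 to 11.7, and lay between its lymph nodes in mouse 1664. Of 11 measured proteases and inhibitors, 6 lay below both lymph nodes in every mouse, beside 15.4% of all genes, and their median was -0.88 without mouse 1815. Mmp9, gelatinase B, was the member called lower than in the other organs. The 13 fibroblast and matrix genes had medians of 0.05, 0.32 and -2.09, with 3 below in every mouse and a median of 0.18 without mouse 1815.

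Cell cycle and hypoxia genes were lower in mice 1383 and 1815 and not in mouse 1664. The 14 measured cell cycle genes had medians of -1.07, 0.40 and -1.18. Cdk1, the kinase that drives mitosis, stood at 9.66, 10.8 and 9.32 against 10.6 to 11.3, and Top2a, the topoisomerase of dividing cells, at 8.37, 10.3 and 8.73 against 9.57 to 10.3. Car9, a hypoxia-induced carbonic anhydrase, stood at 6.86, 7.76 and 5.65 against 7.52 to 9.47, and the 14 genes of hypoxia and glycolysis had medians of -1.35, 0.03 and -1.26. Of both lists 0 genes lay outside both lymph nodes in the same direction in every mouse.

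**Figure D5:**
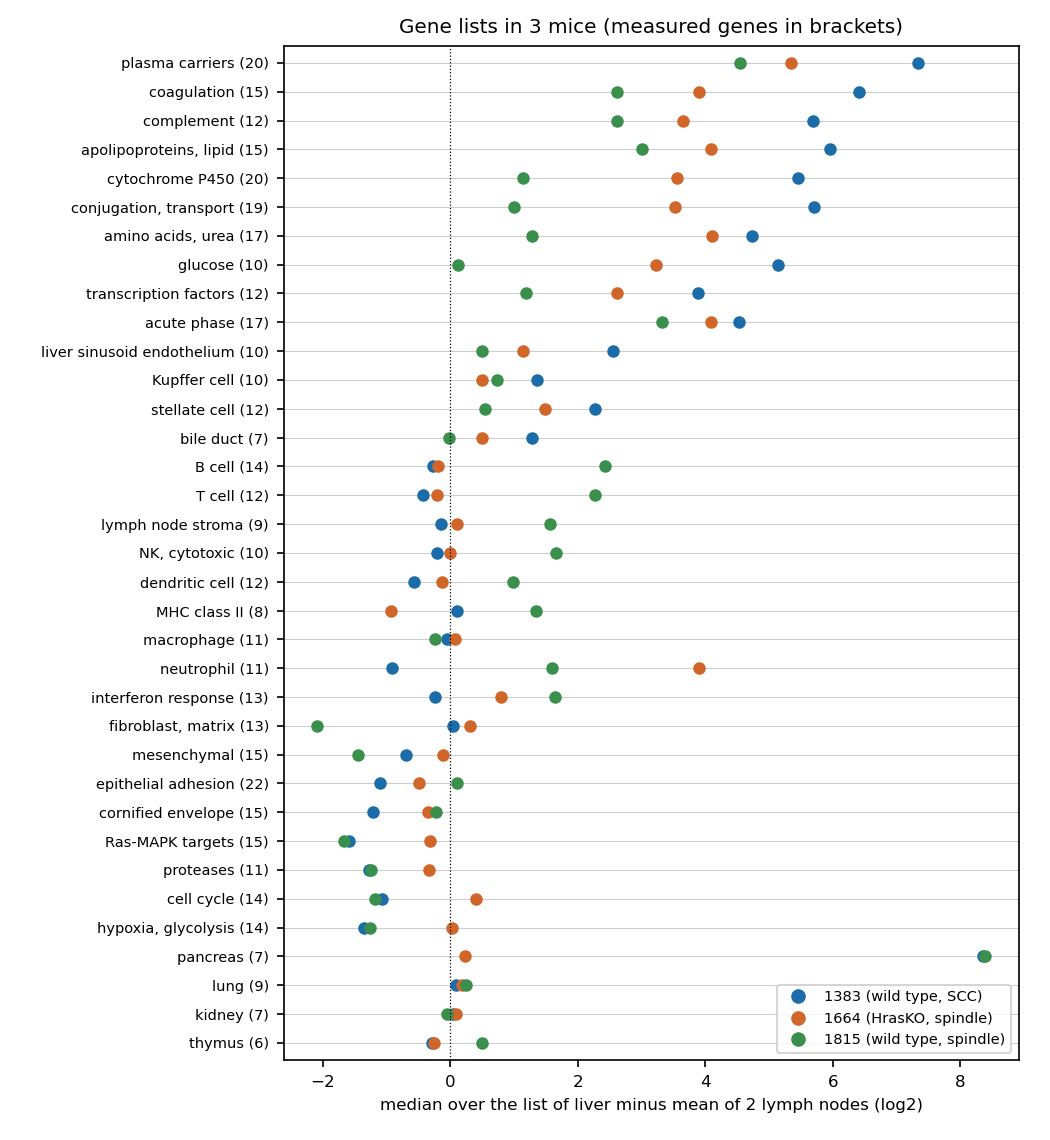
Median liver minus lymph node difference of each gene list in each mouse (horizontal axis, log2 difference; points, mice; number of measured genes in brackets). Hepatocyte lists lie to the right of 0 in all 3 mice, the pancreas list lies at 8.36 and 8.39 in mice 1383 and 1815 but at 0.23 in mouse 1664, and B and T cell lists lie above 2 in mouse 1815.

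Vessel and other lists showed smaller differences. Eng, an endothelial TGF-beta co-receptor, stood at 9.95, 9.43 and 9.72 against 8.06 to 9.46, with differences of 1.12, 1.05 and 1.08, and 6 of 12 endothelial genes lay above both lymph nodes in every mouse, beside 7.69% of all genes. Against the other organs 0 endothelial genes were called, and their median difference was -0.21. Prox1, a factor of lymphatic endothelium and of hepatocytes, stood at 8.60, 8.40 and 7.25 against 4.12 to 6.27, while Pdpn, a lymphatic and tumour glycoprotein, was below both lymph nodes in every mouse, with differences of -1.65, -1.11 and -2.42. Ccl19, a chemokine of lymph node stroma, stood at 7.69, 6.45 and 11.4 against 4.02 to 8.31. Lung, kidney and thymus markers had list medians between -0.29 and 0.505 in the 3 mice.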

How the data were processed

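The deposited log2 values were microarray intensities normalized with RMA by the authors, per the submitters' processing notes; the RMA version is not given in the sources used here. Of 28204 probe sets, 21141 had 1 gene symbol, 1881 had several and 5182 were not named here. The probe set with the highest mean stood for a gene, which gave 18772 genes. The number of arrays limits the precision. Values were averaged per mouse and site and tested with limma 3.58.1 in R 4.3.3, with the mouse as a block, at a Benjamini-Hochberg adjusted p under 0.05. A gene was also counted where the liver array lay above or below both lymph node arrays of its mouse in 3 of 3 mice. The 44 gene lists held 585 genes, 524 of them measured. Named genes were the 10 largest differences per direction outside both lymph nodes in every mouse, with mean level of at least 6, and leading members of each list. Further genes, Cyp7a1 and Slc10a1 among them, were named by choice after their values had been seen. Members and lists were chosen with earlier results of these data known. On simulated data for the liver against lymph node comparison (18772 genes), 30.9%, 72.7% and 86.4% of genes changed by 1, 2 and 4 log2 units were recovered, with 7 false calls. The simulated spread was that between lymph node arrays of 1 mouse, and a changed gene shifted equally in all 3 liver arrays. Differences that vary between mice were not simulated, so these shares do not apply to the real fit, which called 0 genes. The pairing comes from the mouse number. Alternatives changed the fit, the filter, the probe set rule and the arrays. The result of 1 further motif core is not reported here.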

Additional observations from a re-analysis of the deposited data

Results flagged for a closer look

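In 2 gene lists the median level of the liver array lay above both lymph node arrays in the HrasKO mouse 1664. In the WT mice it lay below both, a difference that was not tested and that coincides with batch. The WT liver arrays also had 101 and 95 of the 208 tumour genes at or below the highest skin, against 6 in mouse 1664. Their pancreas list levels were 12.64 and 12.55, against 4.25. Genotype, batch, tumour content and pancreatic RNA cannot be told apart here. Cell cycle genes had median differences of -1.07 and -1.18 in the WT mice 1383 and 1815 and 0.4 in mouse 1664. Hypoxia and glycolysis genes had medians of -1.35 and -1.26 in the WT mice and 0.03 in mouse 1664, which is less than the median difference of 0.39 between its lymph node arrays. By the sign of the median difference alone, other lists such as MHC class II genes (0.11, -0.93 and 1.35 in mice 1383, 1664 and 1815) also differed.

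In arrays outside both fits, 4 list levels were flagged that lay slightly above the highest dorsal skin, near the low end of the scale and with no test. Other lists also lay above skin in such arrays and were not flagged. The plasma carrier list had a median level of 5.4 in the kidney metastasis of mouse 1815, against 5.10 in skin. In a carcinoma of mouse 1508 the clotting list stood at 4.67 against 4.45, and the P450 list at 4.61 against 4.57. The amino acid list, which was not flagged, stood there at 5.11 against 4.52. The pancreas list stood at 4.94 in a papilloma of mouse 1984, against 4.18.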

How the results depend on the processing

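For liver against lymph node, the count of 0 genes became 300 with the 9 arrays taken singly, 651 in 1 fit over all metastases of 5 sites, 26 with a filter on low values and 5 with a trended, robust variance. Without the pairing (no replicate block) it was 16. Leaving out a mouse or a lymph node array gave 0 to 3. For liver against other organs, the count of 532 became 196 with the filter and 835 with the mouse as a random block, and 185 (without mouse 1383) to 551 (without mouse 1815) when a mouse was left out. A margin of 1 log2 unit left 218 genes above and 22 below both lymph nodes. Of 158 named genes, 17 changed sign under an alternative. In the fit over 5 sites H2-Ob was -0.12, Cd3e -0.13 and Cd79a -0.025. With arrays or mice left out, the differences ran from -0.17 to 1.07 for H2-Oa, -0.72 to 1.08 for H2-Ob, -1.28 to 0.12 for Trem2, -0.24 to 1.72 for Car3, -1.44 to 0.55 for Myh1, -0.33 to 0.17 for Mylpf, -0.68 to 0.98 for Ccr9, -0.60 to 0.27 for Aire, -0.036 to 1.21 for Pyy, -0.92 to 4.06 for Reg3g, -2.77 to 0.052 for Xist, -0.24 to 1.10 for Eif2s3y, -0.48 to 0.95 for Uty, -0.20 to 1.34 for Cd3e, -0.39 to 1.35 for Cd79a, -0.83 to 1.48 for Ms4a1 and -0.50 to 1.04 for Cdh1. The cause was not tested. Genes near the array background have compressed differences.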

Other observations

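Single hepatocyte genes reached high levels in arrays that were not labelled liver. Alb stood at 8.85 in a papilloma of mouse 1949. Fgg stood at 9.29 in the lung metastasis of mouse 1383. Ahsg stood at 9.90 in the kidney metastasis of mouse 1815.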
